A study of Mus musculus with 26 samples.

Results

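The genes described here are the Tcf and Lef factors, which are the DNA-binding proteins of the Wnt pathway, and a small set of genes tied to the same pathway. The list held 9 genes: the factors Tcf7, Lef1, Tcf7l1 and Tcf7l2, the pathway targets Axin2, Sp5 and Lgr5, the secreted amplifier Rspo3 and the receptor Fzd2. Members were found by symbol among probe sets that the array annotation gave to 1 gene. This matched 8 of the 9 genes, with 151 of the 631748 probe sets. Tcf7 had 19 probe sets, Lef1 29, Tcf7l2 31, Axin2 16, Sp5 10, Rspo3 8, Fzd2 6 and Lgr5 32, against a median of 13 over the 18341 genes tested. No probe set carried the symbol Tcf7l1. The annotation held 17 probe sets under Tcf3, which RefSeq lists as an older symbol of Tcf7l1 and also as the current symbol of the E2A gene. The annotation named E2A separately, as Tcfe2a, with 25 probe sets. The 17 probe sets are therefore given as "Tcf3 as annotated" and are not counted among the 8.

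Total RNA of 26 mouse samples was hybridised to an Affymetrix exon array, Mouse Exon 1.0 ST, on which several short probe sets read each gene. A total of 14 arrays, titled ES1 to ES14, carry the strain label 129S2/SvPas, and 12 arrays, titled ES15 to ES26, carry the strain label C57BL/6. The labels abbreviate every source as ES EB and call each sample an embryoid body cell, a cell of the aggregates that embryonic stem cells form as they differentiate. They give no age, allele, treatment, time, batch or culture, so strain, an unrecorded batch and the order of the titles cannot be told apart, and p-values cover the spread among these samples alone, which can be technical. Values are log2 and were deposited after RMA, which normalizes the arrays to a common distribution. The gene value is the median of the brighter 50% of a gene's probe sets, taking brightness as the mean over the 26 arrays.

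Wnt proteins are secreted signals that bind Frizzled receptors such as Fzd2 together with an Lrp co-receptor. This stops the degradation of beta-catenin, which enters the nucleus and joins Tcf or Lef proteins on DNA. Without beta-catenin the same factors hold their targets down. Tcf7l1 mostly acts as a repressor and restrains the self-renewal genes of mouse embryonic stem cells, while Tcf7 and Lef1 are often activators and are themselves raised by the pathway. Wnt signalling drives formation of the primitive streak, from which mesoderm arises, in embryos and in embryoid bodies. Tcf7 and Lef1 are also known from lymphocytes, where they direct T cell development.

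The arrays did not fall into 2 groups by strain label, so the members are also given in 5 runs of titles: ES1 to ES12, ES13 to ES14, ES15 to ES20, ES21 to ES24 and ES25 to ES26. The runs are not groups that the labels give. They are described with no test, apart from label fits below that leave a run out. The members, the lists and the runs were chosen with earlier results of these arrays known. Shares of members set beside shares of all genes are therefore descriptions. Across 18341 genes, ES13 and ES14 had a mean correlation of 0.821 and 0.824 with the other arrays that share their strain label. Their mean correlation with the C57BL/6 label was 0.944 and 0.948. The mean of 7 myeloid markers was 11.31 to 11.99 in ES1 to ES12, against 5.49 to 6.81 in the other 14 arrays. All 7 had a median above the background benchmark given below in ES1 to ES12, and 3 or 4 of them did in each other run. The labels name no myeloid cells, and which cells in ES1 to ES12 carry these markers was not tested. The mean of 8 naive pluripotency markers was 5.47 to 5.97 in ES1 to ES12 and 10.81 to 11.24 in ES21 to ES24. In the other runs it lay between 7.20 and 8.47. The mean of 6 primitive streak markers was highest in ES13 to ES14, at 7.86 to 9.33. The mean of 5 embryonic erythroid markers was highest in ES15 to ES20, at 9.67 to 11.94, and overlapped ES13 to ES14, at 7.08 to 9.88. All 5 had a median above the benchmark in both of these runs. As a benchmark for background, the 95th percentile of 1245 olfactory and vomeronasal receptor genes lay between 5.84 and 6.19 on the arrays. In mixed cells, fewer cells of a type and less RNA per cell cannot be told apart.

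Tcf7, which encodes the factor TCF1, was lowest in ES1 to ES12 and highest in ES13 to ES14. Its gene value had a lowest, median and highest of 6.40, 7.04 and 7.42 in ES1 to ES12. ES13 and ES14 were at 10.66 and 10.04. Among arrays labelled C57BL/6, ES15 to ES20 were at 10.04, 9.86, 9.01, 8.78, 8.39 and 8.46, ES21 to ES24 lay between 8.92 and 9.37, and ES25 and ES26 lay between 8.16 and 8.33. Every one of ES1 to ES12 was below each of the other 14 arrays, which 6.42% of all genes also showed, and 1 of the 8 members. By this gene value Tcf7 did so, and Tcf3 as annotated as well. With other summaries of the probe sets 4 of the 8 members did: Tcf7, Axin2, Fzd2 and Lgr5 with the median over all probe sets (6.51% of all genes), and Tcf7, Rspo3, Fzd2 and Lgr5 with their mean (7.56%) or with the dimmer probe sets (5.23%). The ranges of ES21 to ES24 and ES15 to ES20 overlapped, while ES25 to ES26 lay below both and above ES1 to ES12. The median in ES1 to ES12 was above the background benchmark.

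**Figure D1:**
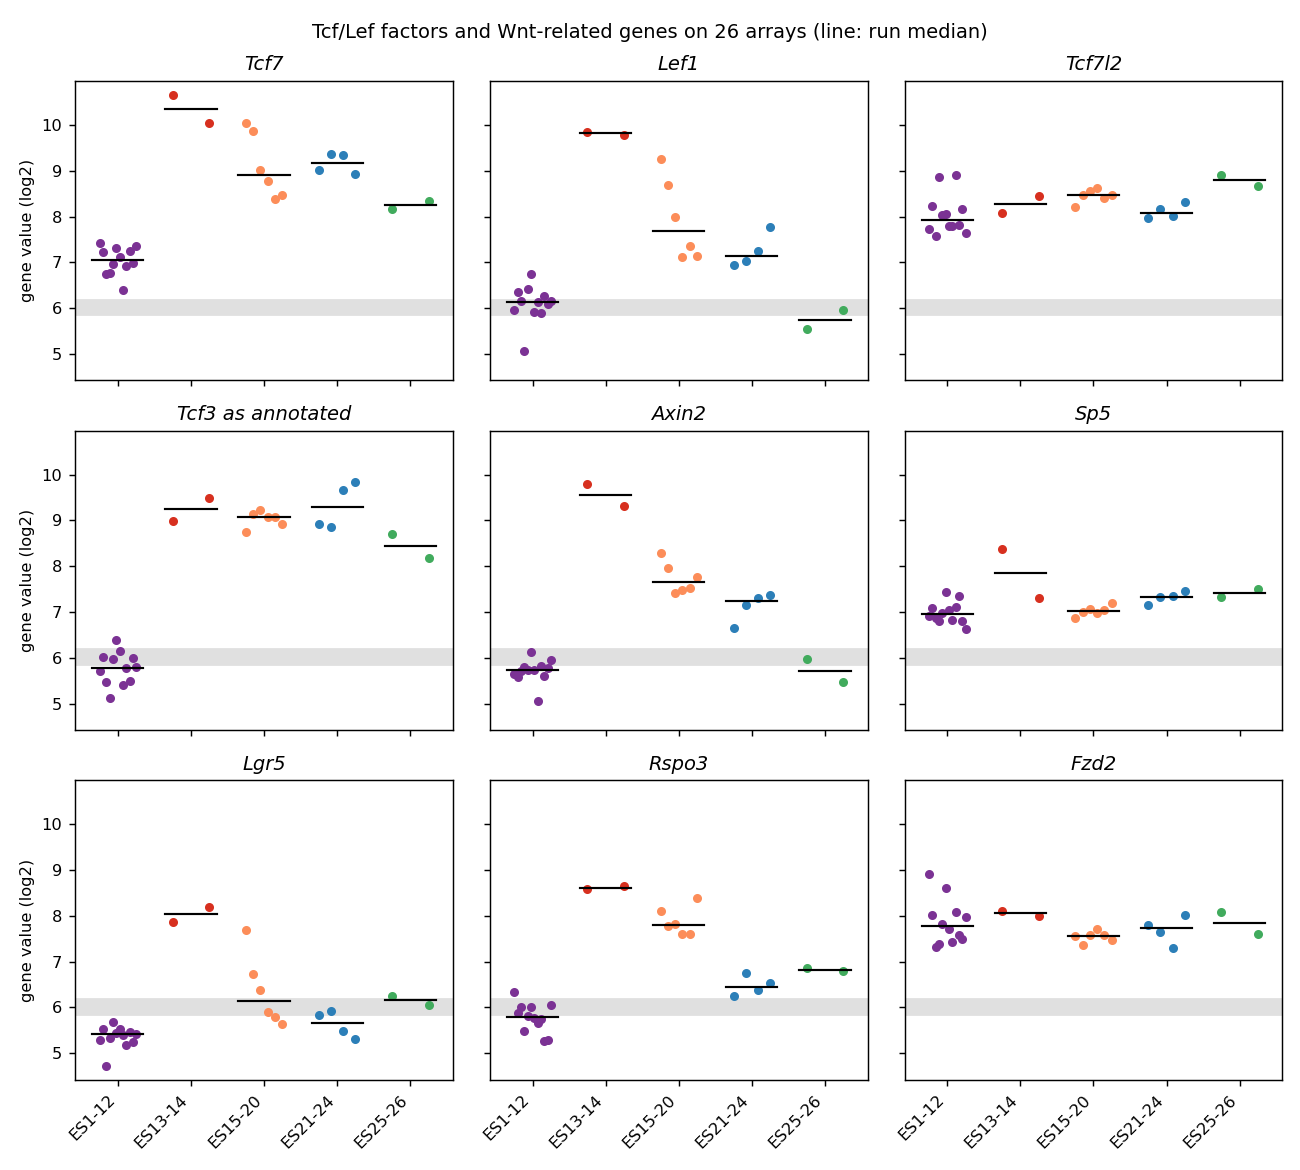
Gene value (log2) of the 8 members and of Tcf3 as annotated on each array, 1 panel per gene, by title run; points are arrays, short bars are run medians and the grey band is the background benchmark of 5.84 to 6.19. ES13 and ES14 lie above all other arrays for Lef1, Axin2, Rspo3 and Lgr5, while Tcf7l2, Sp5 and Fzd2 span no more than 1.75 units over the 26 arrays.

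Lef1, the close relative of Tcf7, had its highest values in ES13 and ES14, at 9.85 and 9.77. Its lowest, median and highest values were 5.07, 6.14 and 6.75 in ES1 to ES12. ES15 to ES20 were at 9.26, 8.70, 8.00, 7.11, 7.35 and 7.14, so the first 3 titles of that run stood above the other 3. ES21 to ES24 were at 6.94, 7.04, 7.26 and 7.76, overlapping the run before them. ES25 and ES26 lay at 5.54 to 5.96, inside the range of ES1 to ES12 and at the background benchmark. Tcf7 in the same 2 arrays stayed above 8 and above all of ES1 to ES12. Both ES25 and ES26 were below all of ES13 to ES24 for 3 of the 8 members, Tcf7, Lef1 and Axin2, and for 6.37% of all genes.

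Because Tcf7 and Lef1 are known from lymphocytes, T cell markers are given beside them. Of 10 T cell markers, 9 were matched, and their mean was 5.06 to 6.12 over all 26 arrays. Cd3d, Cd3g, Cd4 and Cd8a had medians of 4.93, 4.24, 4.63 and 5.21 in ES1 to ES12, below the benchmark, and run medians no higher than 5.33 elsewhere. Cd8b1 was at 5.61 in ES1 to ES12 and between 5.04 and 5.49 in the other runs. Bcl11b was highest in ES1 to ES12, at 6.40 and above the benchmark, against 5.92 to 6.21 in the other runs. Cd3e was at 6.26 in ES1 to ES12 and between 6.08 and 6.62 in the other runs. In all, 4 of the 9 had a median above the benchmark in ES1 to ES12, as did 4 in ES15 to ES20 and 1 or 2 in each other run. The interleukin 7 receptor Il7r and the co-stimulator Cd28 were at 8.67 and 7.18 in ES1 to ES12. Tcf7 and Lef1 were at their lowest or near it in those same 12 arrays. The part of T cells in the values of Tcf7 and Lef1 was not tested.

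Tcf7l2, the family member best known from intestine, moved little. Its run medians lay between 7.93 in ES1 to ES12 and 8.79 in ES25 to ES26, and its span over the 26 arrays was 1.35, the smallest among the members. In ES1 to ES12, ES4 and ES9 stood apart at 8.86 and 8.91, near ES25 at 8.92, while the other 10 arrays lay between 7.57 and 8.23. ES25 and ES26 were above the arrays of ES15 to ES20, and every other pair of neighbours in the order of runs overlapped. Tcf3 as annotated had a lowest, median and highest of 5.12, 5.79 and 6.39 in ES1 to ES12, so it lay about the benchmark. Its medians were 9.24 in ES13 to ES14, 9.08 in ES15 to ES20, 9.29 in ES21 to ES24 and 8.45 in ES25 to ES26. Unlike Lef1, its values in ES13, ES14 and ES15 to ES24 overlapped, with ranges of 8.99 to 9.50, 8.75 to 9.23 and 8.86 to 9.85.

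Axin2, which encodes a scaffold that helps to degrade beta-catenin and is widely used as a readout of the pathway, separated most of the runs. ES1 to ES12 had a lowest, median and highest of 5.05, 5.74 and 6.12, at or below the benchmark. ES13 and ES14 were at 9.79 and 9.32. ES15 to ES20 were at 8.29, 7.97, 7.41, 7.49, 7.53 and 7.77, ES21 to ES24 lay between 6.65 and 7.37, and ES25 and ES26 lay between 5.46 and 5.97. The order was ES13 to ES14, ES15 to ES20, ES21 to ES24, and then ES1 to ES12 with ES25 to ES26, and of these neighbours only the last pair overlapped. All of ES21 to ES24 were below all of ES15 to ES20 for 2 of the 8 members, Axin2 and Rspo3, beside 11.8% of all genes.

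Lgr5, a receptor for R-spondins and a marker of adult stem cells, was near background on most arrays. ES13 and ES14 were at 7.86 and 8.20, the highest values of the series. The range was 4.72 to 5.68 in ES1 to ES12, 5.31 to 5.92 in ES21 to ES24 and 6.05 to 6.26 in ES25 to ES26. ES15 to ES20 were at 7.69, 6.73, 6.38, 5.91, 5.80 and 5.64, so 3 of these arrays were above the highest benchmark value. Rspo3, which encodes a secreted R-spondin that keeps Frizzled receptors on the cell surface, lay at 5.26, 5.79 and 6.33 (lowest, median and highest) in ES1 to ES12. It was at 8.58 to 8.64 in ES13 to ES14, and ES15 to ES20 were at 8.10, 7.79, 7.82, 7.61, 7.60 and 8.39. ES21 to ES24 lay between 6.24 and 6.74 and ES25 to ES26 between 6.80 and 6.85, so the last run stood above ES21 to ES24, unlike Lef1 and Axin2. ES13 and ES14 were both above the other 24 arrays for 4 of the 8 members, Lef1, Axin2, Rspo3 and Lgr5, and for 1.21% of all genes. The members and the runs were chosen with earlier results of these arrays known, so this contrast is a description and adds no independent support.

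The primitive streak genes T, Mixl1 and Eomes were also highest in ES13 to ES14, with run medians of 10.80, 9.94 and 9.59. Their medians were 7.14, 5.59 and 5.51 in ES1 to ES12 and no more than 9.37, 6.12 and 7.37 in the runs labelled C57BL/6. ES13 and ES14 lay apart for these genes, at 9.81 to 11.79 for T, 8.93 to 10.95 for Mixl1 and 8.67 to 10.50 for Eomes. All 6 streak markers had a median above the benchmark in ES13 to ES14, as did 3 in ES1 to ES12, 4 in ES15 to ES20, 5 in ES21 to ES24 and 4 in ES25 to ES26. Mesp1, Gsc and Fgf8 varied less, with medians of 6.21, 7.11 and 7.92 in ES13 to ES14 and of 5.39 to 5.85, 6.58 to 7.06 and 7.38 to 7.60 in the other runs. Their part in the values of Lef1, Axin2, Rspo3 and Lgr5 was not tested.

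Sp5, which encodes a zinc finger repressor and is a direct target of beta-catenin, was nearly level by its gene value. Run medians lay between 6.95 in ES1 to ES12 and 7.84 in ES13 to ES14, and every pair of neighbouring runs overlapped. ES13 was at 8.38, the highest array, while ES14 was at 7.31 and inside the other runs. A pair of its dimmer probe sets varied more than the gene value. Probe set 5603560 was at 3.85 to 5.12 in ES1 to ES12, at 7.94 and 6.54 in ES13 and ES14, 4.03 to 5.72 in ES15 to ES20, 5.36 to 6.89 in ES21 to ES24, and 4.05 and 4.62 in ES25 and ES26. Probe set 4622564 reached 8.21 in ES13 and 5.84 in ES14. Both were chosen after their values were seen. Both were below the benchmark throughout ES1 to ES12, so the sizes of their changes are uncertain.

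Tcf and Lef proteins bind a short DNA motif, and 4 promoters of members are shown with it. Promoters of 300 bases, from 250 before to 50 after each RefSeq gene start, came from assembly GRCm38.p6, and 11 of them matched 6 of the 9 listed genes. The letters searched on both strands were CTTTGAA, with CTTTGAT, with CTTTGTA, and with CTTTGTT. Over all 32817 promoters of this length, 16.9% held at least 1 match and 1.94% held 2 or more. Among the member promoters, 3 of 11 held a match: Sp5 with 2, 1 of the 4 Lef1 promoters and 1 of the 2 Tcf7l2 promoters, the Tcf7l2 match lying 14 to 8 bases before the start at chr19:55895071-55895370. Sp5, Axin2 and the first and last Lef1 start are printed because these genes differ in how strongly they varied and in whether the letters occur. Sequences run 5′ to 3′ on the plus strand, which is the strand of all 3 genes, and capitals mark a match.
Sp5, chr2:70474673-70474972: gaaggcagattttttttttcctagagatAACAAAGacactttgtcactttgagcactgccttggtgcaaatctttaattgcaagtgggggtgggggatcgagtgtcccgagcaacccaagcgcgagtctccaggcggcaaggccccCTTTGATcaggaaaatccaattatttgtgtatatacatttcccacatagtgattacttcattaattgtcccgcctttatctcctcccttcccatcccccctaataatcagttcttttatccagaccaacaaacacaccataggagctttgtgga
Axin2, chr11:108920099-108920398: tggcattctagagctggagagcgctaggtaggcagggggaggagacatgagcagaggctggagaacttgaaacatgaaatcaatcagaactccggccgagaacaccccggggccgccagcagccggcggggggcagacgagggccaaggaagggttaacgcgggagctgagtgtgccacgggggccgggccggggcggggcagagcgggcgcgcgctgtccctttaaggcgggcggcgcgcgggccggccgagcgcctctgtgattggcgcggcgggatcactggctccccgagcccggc
Lef1 first start, chr3:131110047-131110346: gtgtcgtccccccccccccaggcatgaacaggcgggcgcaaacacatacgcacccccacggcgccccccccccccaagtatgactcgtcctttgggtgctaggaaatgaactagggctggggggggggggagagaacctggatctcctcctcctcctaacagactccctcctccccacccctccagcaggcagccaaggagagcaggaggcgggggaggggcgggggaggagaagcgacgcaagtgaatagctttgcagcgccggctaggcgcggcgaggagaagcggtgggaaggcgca
Lef1 last start, chr3:131156044-131156343: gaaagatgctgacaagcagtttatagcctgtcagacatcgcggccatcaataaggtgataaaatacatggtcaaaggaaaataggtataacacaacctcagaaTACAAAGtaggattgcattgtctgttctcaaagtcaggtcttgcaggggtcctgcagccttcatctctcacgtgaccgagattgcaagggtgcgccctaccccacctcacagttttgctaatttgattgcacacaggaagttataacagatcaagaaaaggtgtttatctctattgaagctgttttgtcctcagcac
In Sp5 the matches lie 222 to 216 bases before the start, where CTTTGTT is read on the opposite strand, and 104 to 98 bases before it, as CTTTGAT on the gene's own strand. In the last Lef1 start CTTTGTA is read on the opposite strand, 147 to 141 bases before the start. The Axin2 promoter and the first Lef1 promoter do not hold these letters in the window shown. By the gene value both genes spanned more than 4.7 units over the arrays and Sp5 spanned 1.75, while some dimmer Sp5 probe sets varied more. Any link between the letters and these spans was not tested. A match here is a description of letters, and no binding was measured.

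Fzd2, the Frizzled receptor of the set, had a gene value that varied little and dimmer probe sets that varied strongly. The gene value ran from 7.32 to 8.91 in ES1 to ES12, was 8.00 to 8.11 in ES13 to ES14, and ran from 7.29 to 8.08 in the arrays labelled C57BL/6, with every pair of neighbouring runs overlapping. This value rests on the brighter 3 of 6 probe sets, and the ranking by mean over all 26 arrays bears on which these are. Probe set 4589376 lay above 4601955 and 4724722 on every array of ES13 to ES26, where they were at 7.29 to 8.11 and 6.77 to 7.90, and it ranks below them through its values in ES1 to ES12. The nearly level gene value, and values relative to it, thus depend on a summary that leaves this probe set out. The brightest, 4768575, lay between 8.85 and 10.18 in the arrays labelled 129S2/SvPas and between 9.61 and 10.36 in those labelled C57BL/6. The dimmer probe set 4589376 had a lowest, median and highest of 2.23, 3.39 and 4.37 in ES1 to ES12, against 8.82 to 9.14 in ES13 to ES14, 9.56 to 10.01 in ES15 to ES20, 8.19 to 9.32 in ES21 to ES24 and 9.42 to 9.86 in ES25 to ES26. Probe set 4860700 behaved alike, at 2.45 to 3.66 in ES1 to ES12 and 5.59 to 7.39 in the other 14 arrays. Probe set 5602857 was at 2.20 to 4.83 in ES1 to ES12 and at 3.75 to 6.34 elsewhere, so its arrays overlapped. For 2 of the 6 probe sets, ES1 to ES12 were all below the rest, beside 5.25% of all probe sets.

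**Figure D2:**
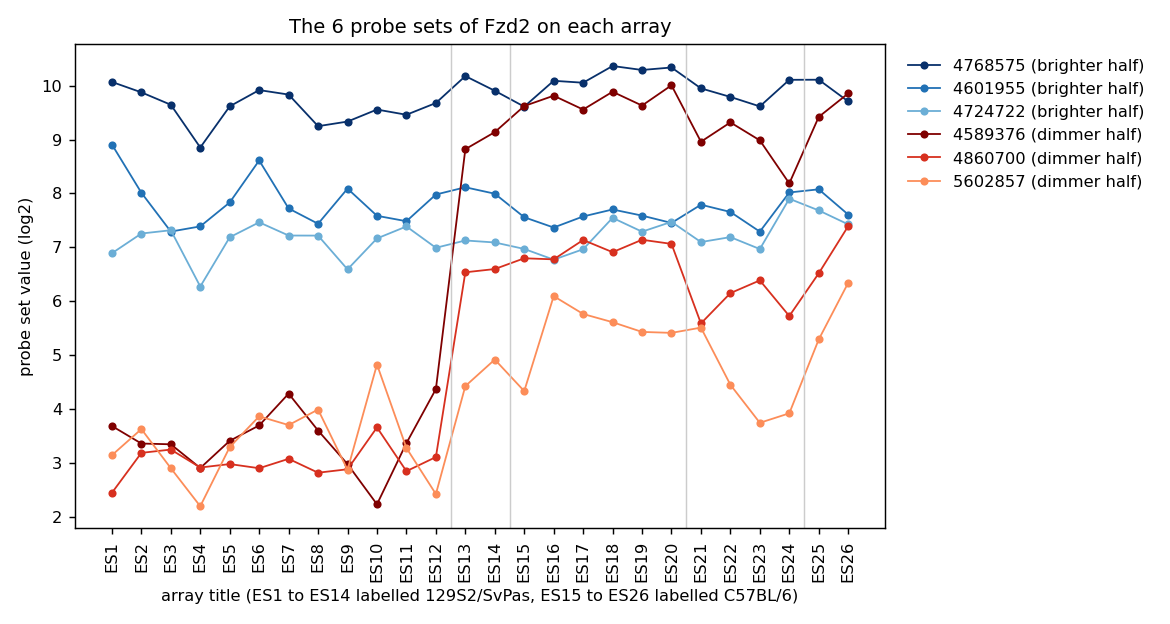
Value (log2) of the 6 Fzd2 probe sets on each array in title order; blue lines are the brighter 3 probe sets that make up the gene value and orange lines the dimmer 3. Probe sets 4589376 and 4860700 lie at 4.37 or lower in ES1 to ES12 and at 5.59 or higher in ES13 to ES26, while the brighter 3 run from 6.27 to 10.36 over all arrays.

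The brightest probe set differed little between the labels (-0.35 ± 0.13, limma adjusted p = 0.0347). By value, 4589376 averaged 4.23 ± 2.08 (SD, n = 14) in arrays labelled 129S2/SvPas and 9.44 ± 0.52 (SD, n = 12) in arrays labelled C57BL/6. They differed by -5.21 ± 0.58 (SE, log2), with limma's adjusted p = 2.28e-07 over 299033 probe sets. In ES1 to ES12 the 3 dimmer probe sets were all below the benchmark of 5.84 to 6.19, which was set on gene values, so the sizes of their differences are uncertain. Probe set 4860700 differed by -3.12 ± 0.39 (limma adjusted p = 7.91e-07) and 5602857 by -1.63 ± 0.31 (limma adjusted p = 0.000162). Relative to the Fzd2 value of the same array, and tested against a minimum difference of 1 log2 unit, 4589376 differed by -5.46 ± 0.59 (limma adjusted p = 0.000124) and 4860700 by -3.37 ± 0.42 (limma adjusted p = 0.00209). The third, 5602857, did not pass that test (-1.87 ± 0.34, limma adjusted p = 0.452). By this test 2 of 6 Fzd2 probe sets passed as lower relative to their gene, where 0.368% of all probe sets passed as lower and 0.439% as higher. Neither is part of the gene value, and 4589376 was left out of it through its low values in ES1 to ES12. The ranking therefore partly fixed this outcome, which adds no support to the differences by value. Positions of probe sets were not used here, and which stretch of Fzd2 each one reads is therefore not given. Nor was it tested whether the dimmer or the brighter probe sets follow the transcript.

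The strain labels were compared with limma over all 18341 genes, with values as mean ± SD over 14 arrays labelled 129S2/SvPas and 12 labelled C57BL/6. Tcf7 averaged 7.51 ± 1.24 in arrays labelled 129S2/SvPas and 8.97 ± 0.60 in arrays labelled C57BL/6, which gives -1.46 ± 0.37 (difference and its SE, log2; limma adjusted p = 0.00233). In ES1 to ES12 the median of Rspo3 was below the benchmark, which limits the size of its difference. Rspo3 averaged 6.18 ± 1.07 in arrays labelled 129S2/SvPas and 7.24 ± 0.72 in arrays labelled C57BL/6, a difference of -1.06 ± 0.35 (limma adjusted p = 0.0150). These 2 of the 8 members were lower and 0 were higher, where 22.1% of all genes were lower and 21.1% higher, so the members' share is near the background. Tcf3 as annotated, whose median in ES1 to ES12 was likewise below the benchmark, was lower too, at 6.27 ± 1.31 in arrays labelled 129S2/SvPas and 9.03 ± 0.43 in arrays labelled C57BL/6 (difference -2.76 ± 0.38, limma adjusted p = 1.77e-06). ES13 and ES14 carry the label 129S2/SvPas but lay within or above the range of the arrays labelled C57BL/6 for all 3.

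The other 6 members did not pass. Axin2 averaged 6.26 ± 1.42 in arrays labelled 129S2/SvPas and 7.20 ± 0.81 in arrays labelled C57BL/6 (difference -0.94 ± 0.44, limma adjusted p = 0.0876). Lef1 averaged 6.63 ± 1.40 in arrays labelled 129S2/SvPas and 7.34 ± 1.03 in arrays labelled C57BL/6 (-0.71 ± 0.46, limma adjusted p = 0.227). The difference was -0.31 ± 0.14 for Tcf7l2 (limma adjusted p = 0.0785), -0.35 ± 0.32 for Lgr5 (0.409), -0.07 ± 0.14 for Sp5 (0.698) and 0.25 ± 0.15 for Fzd2 (0.181), each p adjusted by limma over all genes. The median difference was -0.53 over the 8 members. Single arrays decided some of these calls. Axin2 passed without ES13 (-1.21, limma adjusted p = 0.0060), without ES14 (-1.17, 0.0128) or without ES26 (-1.09, 0.0439), and Tcf7l2 passed without ES4 (-0.37, 0.0264) or without ES9 (-0.38, 0.0243).

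Without ES13 and ES14, 5 of the 8 members were lower under the label 129S2/SvPas and 0 higher, where 25.2% of all genes were lower and 25.2% higher. Tcf7 then differed by -1.93, Axin2 by -1.49, Rspo3 by -1.46, Lef1 by -1.24 and Lgr5 by -0.73, with limma adjusted p-values of 1.41e-09, 5.15e-06, 2.41e-06, 0.00103 and 0.00204. Tcf7l2 (-0.35, limma adjusted p = 0.0555), Sp5 (-0.20, 0.0975) and Fzd2 (0.22, 0.248) did not pass. That fit sets ES1 to ES12 against ES15 to ES26. The arrays left out, ES13 and ES14, held the highest values of Lef1, Axin2, Rspo3 and Lgr5. The runs were chosen with earlier results known, so the p-values of that fit add no independent support. Without ES1 to ES12, which sets ES13 and ES14 against the 12 arrays labelled C57BL/6, the differences were 2.47 for Lef1, 2.36 for Axin2, 1.95 for Lgr5, 1.37 for Tcf7, 1.37 for Rspo3, 0.66 for Sp5 and 0.41 for Fzd2. In that fit, with 2 arrays on one side, 0 of 8 members passed, 0.00545% of all genes (1 gene) passed by limma, and 1814 genes had an unadjusted p under 0.05. The sign of the label difference of Tcf7, Lef1, Axin2, Sp5, Rspo3 and Lgr5 thus turned with the arrays chosen, and Tcf7l2 was at -0.13.

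**Figure D3:**
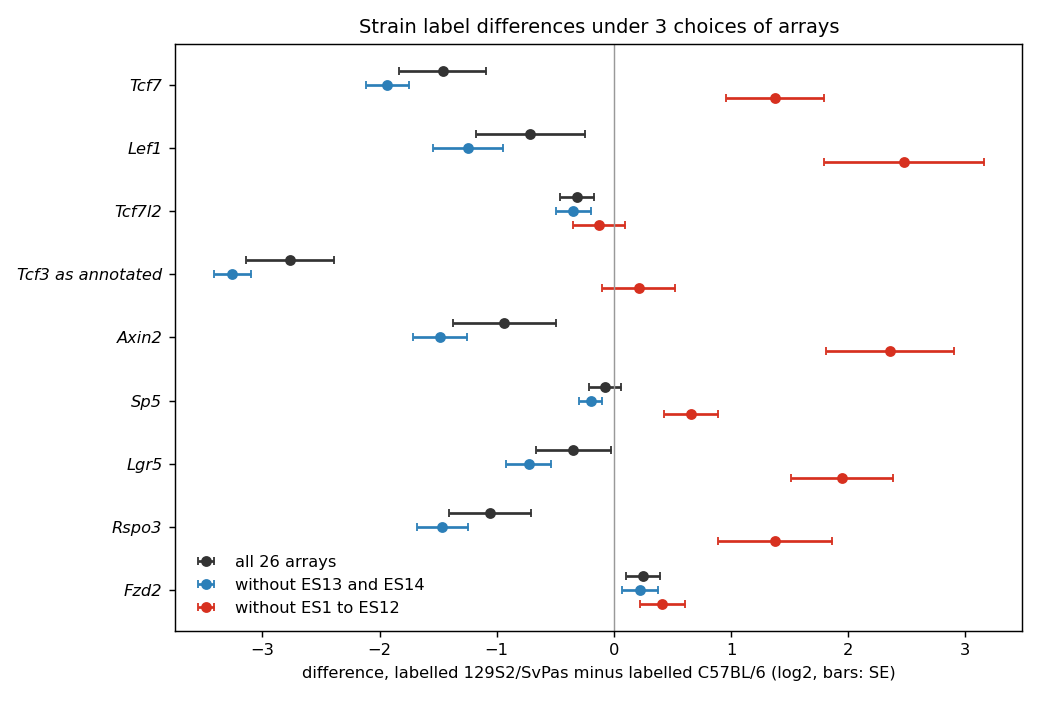
Difference between the strain labels, 129S2/SvPas minus C57BL/6 (log2, bars are SE), for the 8 members and Tcf3 as annotated, with all 26 arrays (black), without ES13 and ES14 (blue) and without ES1 to ES12 (red). For Lef1 the 3 values are -0.71, -1.24 and 2.47, and for Tcf7l2 all 3 lie between -0.35 and -0.13.

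How a gene's probe sets were summarised also moved the calls. With the median over all probe sets 5 of the 8 members were lower (21.8% of all genes), with their mean 4 (24.0%), and with the dimmer probe sets 4 (19.9%). With array weights 6 were lower (26.5%), all but Sp5 and Fzd2. Lef1 passed with the median over all probe sets (-1.49, limma adjusted p = 0.0385) and Axin2 with the median, the mean and the dimmer probe sets (-1.62, -1.17 and -1.44, limma adjusted p = 0.0156, 0.0499 and 0.0355). Rspo3, which passed in each of these, was at -1.58 with the median and -2.08 with the dimmer probe sets. Fzd2, at 0.25 by its brighter probe sets, was at -1.75 with the median over all probe sets, -1.71 with the mean and -2.85 with the dimmer probe sets (limma adjusted p = 3.49e-06, 6.66e-07 and 7.71e-07). With each array centred on its median, 1 member, Fzd2, was higher (0.38, limma adjusted p = 0.0406) beside 31.3% of all genes, and the median difference of all genes moved to 0.13.

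Every probe set of Lef1, Axin2 and Rspo3 was highest in ES13 and ES14, but most did not separate ES1 to ES12 from all other arrays. ES1 to ES12 were all below the rest in 2 of 29 Lef1, 2 of 16 Axin2 and 1 of 8 Rspo3 probe sets, beside 5.25% of all probe sets. ES13 and ES14 were both above the other 24 arrays in 29 of 29 Lef1 probe sets, 16 of 16 of Axin2, 8 of 8 of Rspo3, 17 of 32 of Lgr5, 12 of 19 of Tcf7, 1 of 10 of Sp5 and 0 of Fzd2 and Tcf7l2, where 1.19% of all probe sets did so. Probe sets of a gene share its transcript and are not independent. The genes and the runs were also chosen with earlier results known, so these counts are a description. The median change over the probe sets, ES1 to ES12 minus ES13 to ES14, was -4.92 for Axin2, -4.37 for Lef1, -4.02 for Rspo3, -3.11 for Tcf7 and -3.09 for Lgr5. It was -1.04 for Sp5, -0.90 for Fzd2 and -0.23 for Tcf7l2. ES25 and ES26 were below all of ES13 to ES24 in 18 of 29 Lef1 and 11 of 16 Axin2 probe sets, but in 4 of 19 of Tcf7, beside 4.72% of all probe sets. Between the strain labels, by value, 12 of 19 Tcf7 probe sets were lower and 1 higher, and 8 of 29 of Lef1, 6 of 16 of Axin2, 6 of 8 of Rspo3, 4 of 6 of Fzd2, 4 of 31 of Tcf7l2 and 0 of 10 of Sp5 were lower with none higher. For Lgr5, 2 of 32 were lower and 2 higher. Over all probe sets, 20.9% were lower and 18.3% higher by limma.

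**Figure D4:**
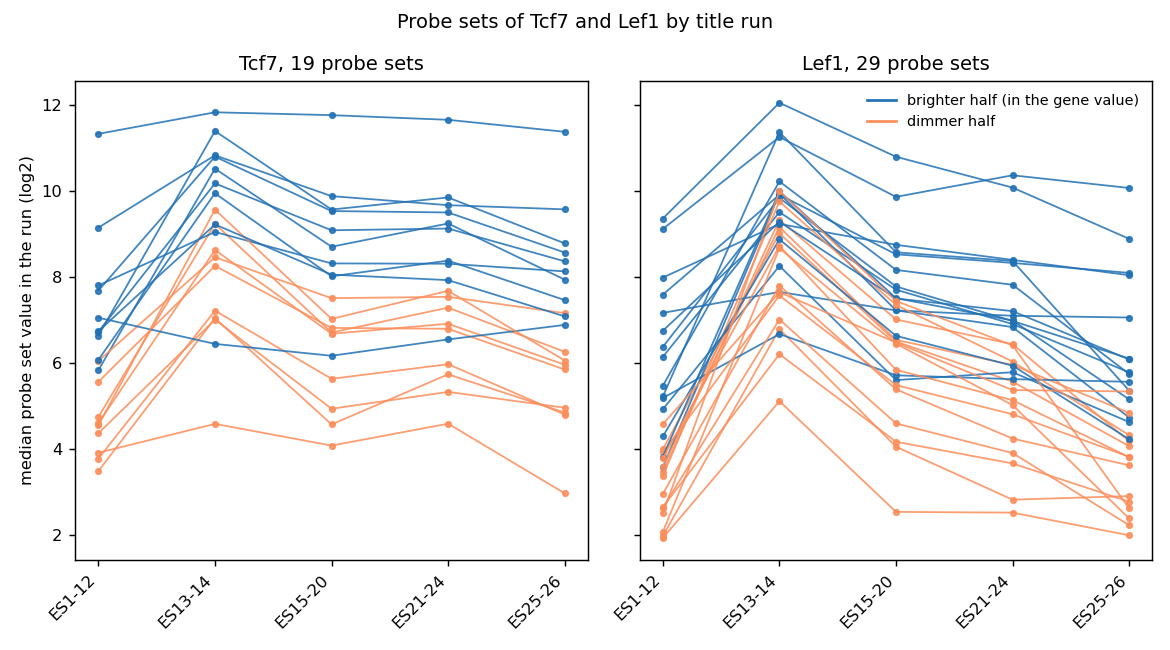
Run median (log2) of each of the 19 Tcf7 and 29 Lef1 probe sets in the 5 title runs; blue lines are the brighter probe sets in the gene value and orange lines the dimmer ones. All Lef1 lines peak in ES13 to ES14, and 1 blue Tcf7 line, probe set 5386537, is highest in ES1 to ES12.

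Within Tcf7, probe set 5386537 did not follow its gene. It was at 6.42 to 9.71 in ES1 to ES12 and at 6.03 to 7.05 in the other 14 arrays, where the gene value was higher. Its ranges overlapped, ES1 alone being at 9.71 and ES2 to ES12 at 6.42 to 8.06. Relative to the gene value, which itself was higher after ES12, its run medians were 0.21, -3.90, -2.86, -2.63 and -1.36 in title order. Its own value differed by 0.81 ± 0.27 between the labels (limma adjusted p = 0.0187), and its relative value by 2.27 ± 0.51, which did not pass the test against 1 log2 unit (limma adjusted p = 0.949). The bright Tcf7 probe set 5028709 was nearly flat, with run medians between 11.33 and 11.83. Within Lef1, probe set 5537741 varied more than the gene, at 1.93 to 3.29 in ES1 to ES12, at 10.10 and 9.88 in ES13 and ES14, 6.26 to 9.53 in ES15 to ES20, 5.70 to 7.15 in ES21 to ES24, and 2.71 and 2.53 in ES25 and ES26. In contrast, Lef1 probe set 4894810 stayed between 6.55 and 7.69 on all arrays. These 4 probe sets were chosen after their values were seen. For 5537741 the values in ES1 to ES12, ES25 and ES26 were below the benchmark, so the size of its change is uncertain. A relative value mixes probe affinity with the transcript, so only its change between arrays is read.

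The main test of probe sets relative to their gene covered 132532 probe sets in genes above the median gene. It held 11 of 19 Tcf7 probe sets, the 3 brighter Fzd2 probe sets and none of Lef1, which was not above the median gene. It called 0 of those 14, where 0.403% of all were called. Over all probe sets of genes with at least 4, the test called 0 of Tcf7, 0 of Lef1 and the 2 Fzd2 probe sets above. Tcf3 as annotated had 2 called, among them 4801698, which was steady at 8.00 to 8.70 in arrays labelled 129S2/SvPas and 8.26 to 8.96 in arrays labelled C57BL/6 while the gene value was lower in arrays labelled 129S2/SvPas (relative difference 2.52 ± 0.34, limma adjusted p = 0.0236 in the main test).

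The genes with the most similar profiles were sought for the 5 members that spanned more than 2 log2 units, by the mean absolute difference of profiles centred on their own mean over 26 arrays. Lef1 lay nearest to Axin2 (0.38), then to the membrane protein gene Ms4a4d (0.38) and the growth factor Bmp7 (0.40). Axin2 lay nearest to the zinc finger gene Zfp423 (0.32), the kinesin gene Kif1a (0.35) and the receptor gene Tnfrsf19 (0.36). Rspo3 lay nearest to Tnfrsf19 (0.29), the endoderm and heart factor Gata4 (0.29) and the RNA-binding protein gene Msi1 (0.30). Tcf7 lay nearest to Igsf3 (0.27), the AMP-activated kinase subunit Prkaa2 (0.28) and Tlcd1 (0.35). Lgr5 lay nearest to Cracd (0.22), B130016D09Rik (0.28) and the Wnt inhibitor Dkk1 (0.31). Among the pairs of members, Tcf7 and Lef1 differed by 0.50 and Tcf7 and Axin2 by 0.43.

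The rest of the pathway was described from 6 lists of its genes, holding 104 distinct tested genes beside the members. Of these, 50 were lower and 3 higher under the label 129S2/SvPas, beside 22.1% lower and 21.1% higher among all genes, with a median difference of -0.35 against -0.0015 over all genes. Of the 24 named from the lists, 10 had a median below the benchmark in ES1 to ES12, namely Lgr4, Fzd3, Fzd8, Sfrp1, Sfrp2, Apcdd1, Dkk2, Wnt2, Wnt5a and Tnfrsf19, so the sizes and the order of their differences are uncertain. Among receptors, 12 of 17 were lower and 0 higher (median -1.29, beside 22.1% lower among all genes). They include Lgr4, the R-spondin receptor related to Lgr5 (-4.21), the Wnt co-receptor Ryk (-3.15), Fzd3 (-2.56) and Fzd8 (-2.49), with limma adjusted p-values no higher than 9.28e-06. Lgr4 had run medians of 5.05, 10.72, 10.31, 10.46 and 9.33 in title order, so it was high in all runs after ES12, where Lgr5 was high in ES13 to ES14. Among secreted and membrane inhibitors, 14 of 20 were lower and 0 higher (median -0.67, beside 22.1% lower), among them the Wnt-binding proteins Sfrp1 (-4.66) and Sfrp2 (-3.95), the membrane inhibitor Apcdd1 (-2.96) and Dkk2 (-2.55), with limma adjusted p-values no higher than 7.95e-05. Sfrp1 and Sfrp2 were highest in ES15 to ES20, with medians of 11.03 and 10.02. The means of 5 endothelial and 6 fibroblast and mesenchyme markers also had their highest run medians there, at 9.15 and 9.75, and their part in these values was not tested. Single markers differed. Kdr, Cdh5, Tek, Emcn, Col1a1 and Postn had their highest run median in ES15 to ES20. Col1a2, Prrx1 and Twist1 had theirs in ES25 to ES26. Pecam1 and Thy1 were highest in ES1 to ES12, with medians of 11.09 and 10.68. The endothelial mean was 4.72 to 8.20 on all other arrays, while the fibroblast and mesenchyme mean was 9.53 to 9.88 in ES25 to ES26 and 6.29 to 8.84 in the other runs.

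Among ligands and their secretion genes, 6 of 24 were lower and 0 higher (median -0.15), a share near the 22.1% of all genes. Wnt5a, mostly a ligand of the pathway branch without beta-catenin, differed by -1.80 (limma adjusted p = 0.00424) with run medians of 5.11, 9.61, 7.87, 6.97 and 7.53 in title order. Wnt2 differed by -2.01 (limma adjusted p = 0.00689) and was highest in ES15 to ES20 and next in ES13 to ES14, with medians of 5.26, 7.12, 9.78, 5.47 and 5.49. The Wnt acyltransferase Porcn (-0.74) and the Wnt carrier Wls (-0.64) also passed. Among cytoplasmic components, 11 of 16 were lower and 1 higher (median -0.33, beside 22.1% lower and 21.1% higher), including the signal relay Dvl2 (-1.34), and Amer1 (-1.17), Apc (-0.81) and the axin-modifying enzyme Tnks (-0.70), which act on or with the beta-catenin destruction complex. Among nuclear cofactors, 5 of 16 were lower and 2 higher (median -0.17, beside 22.1% lower and 21.1% higher). Among those that passed were the beta-catenin inhibitor Ctnnbip1 (-1.27), the co-activator Bcl9 (-0.75), the kinase Nlk (-0.66) and the co-repressor Tle3 (0.56).

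The list of 16 targets shares Znrf3 and Rnf43 with the receptors and Nkd1, Notum and Dkk1 with the inhibitors. Of these 16, 4 were lower and 0 higher (median -0.25), a share near the 22.1% of all genes. Those 4 were the cyclin gene Ccnd1 (-2.33), the receptor-degrading ligase Znrf3 (-1.16), Tnfrsf19 (-1.005) and the Wnt-inactivating enzyme Notum (-0.60), with limma adjusted p-values no higher than 0.00950. Tnfrsf19 had run medians of 5.70, 8.43, 7.62, 6.82 and 6.44 in title order, the order of runs that Axin2 showed down to ES21 to ES24. Ccnd1 differed from the members, with medians of 7.40, 11.16, 8.52, 11.83 and 12.32. In 4 of the 16 targets, and in 8 of all 104 genes, ES13 and ES14 were both above the other 24 arrays, beside 1.21% of all genes. The lists and the runs were chosen with earlier results of these data known, so these counts too are a description. In 23 of the 104 genes ES1 to ES12 were all below the other arrays, beside 6.42% of all genes, and in 0 of the 104 and 0 of the 8 members they were all above, where 7.76% of all genes were.

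**Figure D5:**
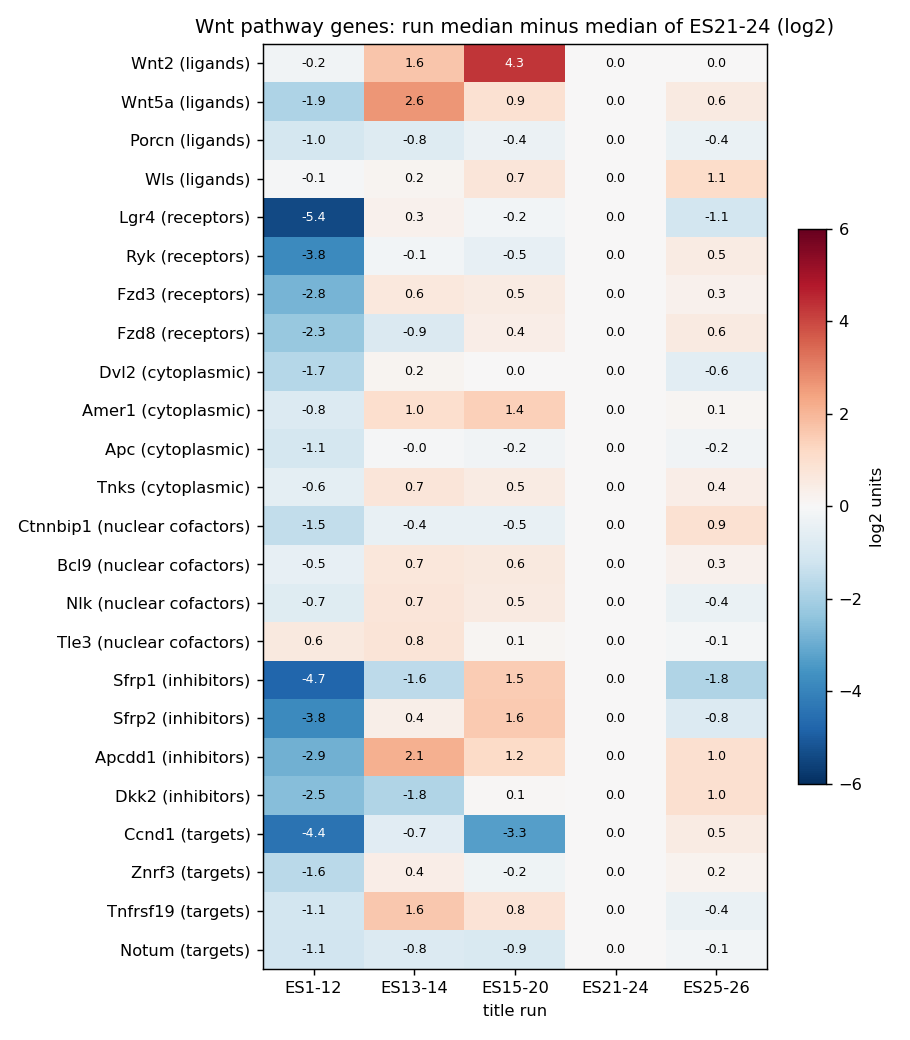
Run median of 24 named Wnt pathway genes minus the median of ES21 to ES24 (log2), by title run; rows are genes grouped by list, blue is lower and red is higher. Lgr4, Ryk and Sfrp1 are low in ES1 to ES12 and Wnt2 is high in ES15 to ES20.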

How the data were processed

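Total RNA from 26 samples was measured on exon arrays. Column-kit RNA was treated with DNase and amplified in 2 rounds, per the labels' protocols, and per the labels, the deposited values are log2 RMA values from an extended-exon analysis. The submitters' processing notes name Affymetrix Expression Console, with no version given. The log base is not stated and was taken as 2 from RMA convention and a range of 0.831 to 15.6. Of 631748 probe sets, 0 had missing values, no pair of arrays was identical, and array medians lay between 5.32 and 5.51. Precision is limited by the number of arrays, which have no read depth.

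Groups follow the strain label. The platform annotation gave 1 symbol to 306069 probe sets (48.4%), several to 6067 and none to 319612. Of 21757 symbols, 17747 were current in RefSeq's GRCm38.p6 table, 3725 took the current name of a unique synonym, and 285 stayed as given. Genes with 4 or more probe sets, 18341 in all, entered a two-sided test in R 4.3.3 with limma 3.58.1 (lmFit, then eBayes with its trend option; Benjamini-Hochberg adjustment over all genes, threshold 0.05). Probe sets minus their gene value were tested with limma's treat against 1 log2 unit, among probe sets above the median probe set in genes above the median gene. The steps were tested on simulated data with independent noise at each feature's spread within the labels. The gene fit recovered 54% of changes of 0.5 log2 units, 82% of 1 and 96% of 2. Differences between runs that share a label were not simulated. Named genes were the members, up to 4 genes past the threshold per pathway list, taken by size of difference, and the 3 most similar profiles for members spanning more than 2 log2 units. The members, the lists, the marker sets and the title runs were chosen with earlier results of these data known. Alternatives covered the gene summary, filters, normalization, eBayes settings, array weights and arrays left out; the dimmer probe sets and the deposited probe set values were added after seeing the data. No promoter was held for Rspo3, Fzd2 and Lgr5, and probe set positions were not used here.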

Additional observations from a re-analysis of the deposited data

How the results depend on the processing

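Over all arrays 7931 genes, 53 of 104 Wnt list genes and 2 of 8 members passed. Leaving out each array in turn gave 7536 to 8631 genes, 51 to 57 list genes and 2 to 3 members. Among genes above the median gene these counts were 4841, 32 and 1, with Lef1, Axin2, Sp5, Rspo3 and Lgr5 giving no value because they lay below it. Without ES1 to ES12 they were 1, 0 and 0, and 0 probe sets passed relative to their gene. The members past the threshold numbered 5 with the median over all probe sets, 4 with their mean, 4 with the dimmer probe sets, 6 with array weights and 5 without ES13 and ES14. Members with ES1 to ES12 all below the rest numbered 1 by the gene value, and 4 each with the median, the mean and the dimmer probe sets. Probe sets called relative to their gene numbered 534, and 2414 over all probe sets, 29081 with no minimum difference, 2127 without ES13 and ES14, 117191 by value alone, and 390 to 1191 with each array left out (1171 without ES13 and 1191 without ES14). With centred arrays 66.0% of calls were higher, against 48.9%.

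Signs turned without ES1 to ES12 for Tcf7 (1.37), Lef1 (2.47), Axin2 (2.36), Sp5 (0.66), Rspo3 (1.37), Lgr5 (1.95), Tcf3 as annotated (0.21), Amer1 (0.33), Apc (0.0964), Apcdd1 (1.38), Bcl9 (0.31), Ccnd1 (0.81), Dvl2 (0.30), Fzd3 (0.34), Lgr4 (0.50), Nlk (0.56), Ryk (0.0707), Tnfrsf19 (1.27), Tnks (0.40), Wnt5a (2.05) and Znrf3 (0.47). None of the 33 members and named pathway genes passed in that fit of 2 arrays against 12. Sp5 turned to 0.0975 with the median over all probe sets, 0.0041 with their mean, 0.0584 with centring and 0.10 with quantile normalization. Fzd2 turned to -1.75, -1.71 and -2.85 with the median, the mean and the dimmer probe sets. With the dimmer probe sets Fzd8, Tle3, Wls and Wnt5a no longer passed. Apart from the changes named here and in the results, these genes kept direction and side of the threshold under the other alternatives. The cause was not tested, except that the second count leaves out dimmer genes and the fit without ES1 to ES12 has fewer arrays. No paired analysis was possible because the labels give no replicate numbers. Signal near background in ES1 to ES12 limits the sizes for Lgr5, Axin2, Rspo3, Lef1, Tcf3 as annotated, the dimmer Fzd2 probe sets and 10 of the 24 named list genes. It likewise limits them for the Sp5 probe sets 5603560 and 4622564 and the Lef1 probe set 5537741.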
